A study of Mus musculus with 3 samples.

Results

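The 9 complement genes described here, *C1qa*, *C1qb*, *C1qc*, *C3*, *C4b*, *Cfb*, *Cfi*, *Serping1* and *Cd55*, were taken by symbol from the 27998 genes counted in kidney cells of mice injured with folic acid (FA). FA given at a high dose damages the proximal tubule and leaves scarring. The study asked how the kidney responds when acyloxyacyl hydrolase (AOAH), an enzyme that removes fatty acids from bacterial lipopolysaccharide, is missing. One group held 2 *Aoah-/-* mice, numbered 2 and 3, in which the gene is disrupted in every cell, on a C57BL/6J background. The other held 1 littermate wild-type (WT) mouse, numbered 3. All mice were 6 to 8 weeks old by the labels, had received FA and gave their kidneys on day 14, and no mouse without FA was analysed here. The suspensions came from whole kidneys, perfused and digested with type IV collagenase, and 1 droplet library of 3′ ends was made per mouse. Captured RNA molecules were tagged with the barcode of their cell and with a unique molecular identifier (UMI), and PCR copies were collapsed by it. The values are UMIs of a gene per 1000000 UMIs of a cell class in a library (counts per 1000000, CPM), given in the order *Aoah-/-* mouse 2, *Aoah-/-* mouse 3, WT mouse. With 1 WT library, no test across mice was run, and every difference below describes these 3 libraries.

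Complement is a cascade of plasma proteins that marks microbes, dead cells and immune complexes for removal. The classical pathway starts when C1q, built of A, B and C chains encoded by *C1qa*, *C1qb* and *C1qc*, binds its target, and C1q is known as a product of tissue macrophages. *C4b* encodes a C4 protein, which is cleaved next, and *C3* encodes the component on which all routes converge. *Cfb* encodes factor B, the protease of the alternative pathway, which amplifies the cleavage of *C3*. *Cfi* encodes factor I, a protease that inactivates its active fragments, *Serping1* encodes the C1 inhibitor, and *Cd55* encodes decay-accelerating factor, a membrane protein that takes convertases apart. The liver makes most of the circulating proteins, and the tubule of an injured kidney is known to make some of them itself.

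On GRCm38 (mm10, the build in the submitters' processing notes), the GENCODE annotation places the 3 C1q genes next to each other on the minus strand, *C1qb* at chr4:136880129-136886187, *C1qc* at chr4:136889804-136893065 and *C1qa* at chr4:136895917-136898803. *C4b*, at chr17:34728380-34743882, and *Cfb*, at chr17:34856374-34862518, lie in the major histocompatibility complex, and *C3* lies on the same chromosome at chr17:57203970-57228136. *Cfi* covers chr3:129835884-129875332, *Serping1* chr2:84765387-84775444 and *Cd55* chr1:130439027-130462744, with *Cfi* alone on the plus strand. The close paralog *C4a* was not analysed here, and reads that *C4b* shares with it could have been dropped or misplaced by the authors' alignment, so the level of *C4b* is uncertain. *Cd55* also has a paralog, *Cd55b*, which had 1 UMI in all proximal tubule-like cells.

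The RefSeq promoter table of GRCm38.p6, which runs from 250 bases before to 50 bases after each start, held 4 of the 9 genes, *C3*, *C1qb*, *C1qc* and *Cd55*. The promoters of *C3* and of 2 C1q chains are printed because *C3* set injured tubule-like cells apart from other tubule-like cells, while the C1q chains followed macrophages. They are the windows chr17:57228087-57228386, chr4:136886151-136886450 and chr4:136892865-136893164, all read on the minus strand, in lower case with motif matches in capitals.
C3: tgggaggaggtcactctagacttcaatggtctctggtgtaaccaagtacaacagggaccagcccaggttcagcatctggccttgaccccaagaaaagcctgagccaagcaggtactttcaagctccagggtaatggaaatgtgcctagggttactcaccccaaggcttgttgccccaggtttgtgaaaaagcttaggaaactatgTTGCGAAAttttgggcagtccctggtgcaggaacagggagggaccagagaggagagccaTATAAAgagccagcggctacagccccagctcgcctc
C1qb: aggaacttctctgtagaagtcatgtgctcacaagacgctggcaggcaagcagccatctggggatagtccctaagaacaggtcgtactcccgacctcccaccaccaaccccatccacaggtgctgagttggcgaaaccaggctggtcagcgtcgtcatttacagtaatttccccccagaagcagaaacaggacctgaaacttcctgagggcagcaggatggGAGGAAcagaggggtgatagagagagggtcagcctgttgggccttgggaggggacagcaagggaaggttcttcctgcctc
C1qc: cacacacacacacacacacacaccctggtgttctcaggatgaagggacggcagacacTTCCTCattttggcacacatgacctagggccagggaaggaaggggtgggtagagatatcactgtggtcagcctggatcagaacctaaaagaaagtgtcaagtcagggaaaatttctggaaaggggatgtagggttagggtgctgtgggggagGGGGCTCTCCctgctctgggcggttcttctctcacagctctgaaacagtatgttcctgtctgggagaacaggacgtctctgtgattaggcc
In the *C3* window the capitals mark TTGCNNAA, the core bound by C/EBP factors, which starts 45 bases before the start, and TATAAA, which begins at base 15 after it. In the *C1qb* window they mark GAGGAA, the core bound by PU.1, a factor of myeloid cells, 30 bases before the start. The *C1qc* window holds the same core on the other strand, 193 bases before the start, and an NF-kappaB motif 41 bases before it. Of all 32851 promoters in the table, searched on both strands, 28.3% held the PU.1 core, 10.8% the C/EBP motif, 13.6% the TATA box and 8.46% the NF-kappaB motif. The STAT motif TTCNNNGAA was in 8.30% of all promoters and the interferon response motif GAAANNGAAA in 3.44%, and neither was in these 4 windows. The *Cd55* window held none of the 6 motifs. These are letter matches and not binding sites.

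The libraries held 23072 to 25516 barcodes and 158551992 to 167222984 UMIs. Barcodes had at least 1672 UMIs in *Aoah-/-* mouse 3 but at least 500 in the others, and the reason for this was not tested. Filtering kept 21368, 19692 and 18202 cells with medians of 3357, 3678 and 3859 UMIs, and library pairs shared 171 to 176 barcodes. Clustering without the complement genes gave 40 clusters. These were named from marker genes and are called "like" the cell type, since no deposited annotation was used, and 863, 2691 and 704 cells stayed unnamed. *Aoah*, the disrupted gene, had 6.75 and 6.19 CPM in the *Aoah-/-* libraries and 18.2 in the WT library. It was lower in both but not at 0, and whether its 3′ tags lie in the disrupted part is not given in the sources used here. The 5 classes that should not make C1q (intercalated-, T lymphocyte-, natural killer-, distal convoluted tubule- and ascending limb-like) are called background classes below. Pooled, they held 121, 113 and 37.3 CPM of *Lyz2*, a myeloid gene, so more myeloid RNA was found outside myeloid cells in both *Aoah-/-* libraries.

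Each gene was concentrated in a few classes. The C1q chains peaked in macrophage-like cells, *C3* in fibroblast-like and injured proximal tubule-like cells, *C4b* in peritoneal-type macrophage-like cells, *Cfi* in injured proximal tubule-like cells, *Serping1* in fibroblast-like cells and *Cd55* in B lymphocyte-like cells. *Cfb* was spread most evenly, with its top class at 8.52 times the median of the 20 classes, against 1093 times for *Serping1*. Levels of different genes are compared without dividing by length, because 3′ counting tags 1 end of each transcript.

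**Figure D1:**
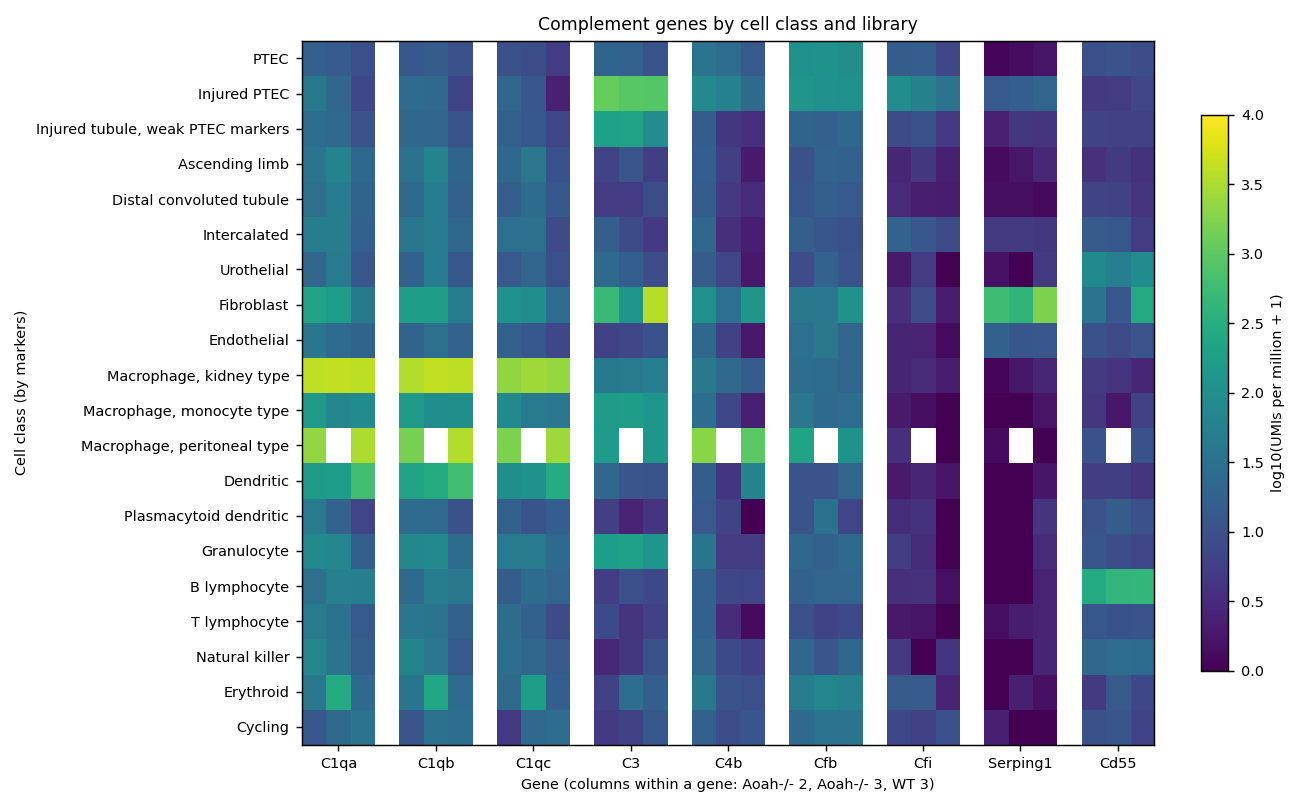
Levels of the 9 complement genes (columns, with the libraries *Aoah-/-* 2, *Aoah-/-* 3 and WT 3 side by side within each gene) in the 20 cell classes (rows), as log10 of CPM plus 1 in the colour scale. *C1qa* reaches 4129, 4219 and 4004 CPM in the kidney-type macrophage-like row, and the white cells are the peritoneal type of *Aoah-/-* mouse 3, which had only 19 cells.

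C1q RNA was found above all in macrophage-like cells, and its level in the kidney type of these cells was similar in *Aoah-/-* and WT libraries. The kidney type took in the macrophage-like clusters whose strongest list was that of kidney macrophage genes, among kidney, monocyte, peritoneal and *Gpnmb* lists. Its leading genes included *Apoe* and MHC class II genes. In kidney-type macrophage-like cells, *C1qa* stood at 4129, 4219 and 4004 CPM, *C1qb* at 3440.3, 4218 and 4043 and *C1qc* at 2196, 2642 and 2327. The WT value lay between the *Aoah-/-* values for *C1qb* and *C1qc* and just below both for *C1qa*. The 3 chains summed to 9766, 11079 and 10374, a log2 ratio of the *Aoah-/-* mean to WT of 0.01 ± 0.13 (SD between the 2 *Aoah-/-* libraries). Thinning drew 1000 UMIs from each cell and left out shallower cells, here 656, 0 and 860, so that 988, 1396 and 822 remained. *C1qa* was found in 87.5%, 87.0% and 85.4% of these (exact Clopper-Pearson intervals 85.2 to 89.5%, 85.1 to 88.7% and 82.8 to 87.8%), and the intervals overlapped. Before thinning the shares were 84.6%, 93.1% and 80.9% of all kidney-type cells, at median depths of 1602, 4548 and 981 UMIs. The thinned share in T lymphocyte-like cells, which should lack C1q, was 4.04%, 2.91% and 1.16%.

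The other macrophage-like types had less C1q on average. Peritoneal-type cells, named from a list of peritoneal macrophage genes, numbered 1405, 19 and 78, with WT between the *Aoah-/-* mice. Their *C1qa* stood at 2263 in *Aoah-/-* mouse 2 and 3274 in WT, their *C1qb* at 1539 and 3441 and their *C1qc* at 1639 and 2557. In *Aoah-/-* mouse 2 this type held 43.4% of all *C1qa* UMIs. Monocyte-type cells carried far less, with *C1qa* at 143, 69.0 and 84.7, and the values of both genotypes overlapped. With all macrophage-like cells together, the C1q sum had a log2 ratio of -0.09 ± 0.34, and 0.03 ± 0.20 without the peritoneal type. The kidney type itself joined a cluster of deep cells, with *C1qa* at 4345, 4376 and 4386, and a cluster of 834, 134 and 1072 cells with low UMI totals in mouse 2 and WT, with *C1qa* at 2882, 1048 and 2767.

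Over whole libraries the C1q sum was 850, 860 and 497 CPM, higher in both *Aoah-/-* libraries. Macrophage-like cells numbered 3511, 1879 and 2089 there, with median UMI totals of 3838, 4656 and 1412, so the number of these cells and the RNA captured from each both differed between libraries. In the 5 background classes, *C1qa* came to 39.3, 46.2 and 16.8, *C1qb* to 32.2, 48.8 and 17.5 and *C1qc* to 22.3, 27.7 and 8.997, each higher in both *Aoah-/-* libraries, like *Lyz2* above. Proximal tubule epithelial cell (PTEC)-like cells had the lowest C1q sum on average over the libraries, at 36.2, 36.0 and 21.3. The high C1q sum of 690 in erythroid-like cells of *Aoah-/-* mouse 3, against 94.5 and 61.2, came with 8.08% of the macrophage *Lyz2* level, against 1.28% and 0.493%. Whether free RNA, doublets or expression lay behind C1q in these classes was not tested.

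**Figure D2:**
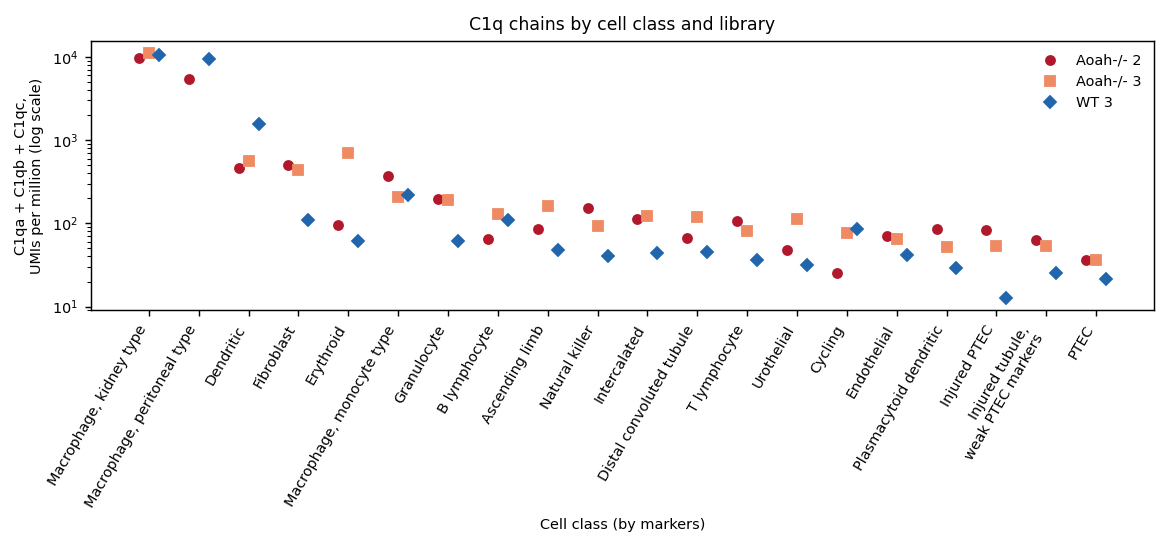
The sum of *C1qa*, *C1qb* and *C1qc* in CPM (log scale) by class, with 1 point per library and no error bars. The kidney and peritoneal macrophage-like types, at 5440.3 to 11079, lie above every other class, and in T lymphocyte-like cells the WT library is lowest, at 36.0 against 106 and 81.3.

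Dendritic-like cells ran the other way. *C1qa* stood at 163 and 169 in the *Aoah-/-* libraries and 620 in WT (log2 ratio -1.90 ± 0.04), *C1qb* at 199, 284 and 616 (-1.35 ± 0.36) and *C1qc* at 97.6, 107 and 300.3 (-1.55 ± 0.09). Both *Aoah-/-* values were below WT for each chain. The share of cells with a *C1qa* UMI, thinned, was 6.65%, 9.42% and 14.1%, with the interval of *Aoah-/-* mouse 3 (6.61 to 12.9%) overlapping that of WT (10.5 to 18.3%). The summed level of 24 macrophage markers in the same cells was 7102, 7841 and 11426, with 1 of the 24 at 0 in each library, so macrophage RNA moved with C1q here and its part in the result was not tested.

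*C3* marked the injured tubule. Injured PTEC-like cells (193, 383 and 111 cells), which held both injury and PTEC markers, had *C3* at 1119.5, 899 and 874 CPM, and the other PTEC-like cells (8075, 4812 and 9394 cells) had 18.7, 16.9 and 9.78. The fold was 65.8 on average and ran from 53.1 to 89.4 over the 3 mice. A second injured tubule-like type had weak PTEC markers, whose 29 genes summed to 7355, 8697 and 9500 with none at 0. Its 12 ascending limb markers summed to 6254, 6092 and 5276, with all 12 over 20 CPM in each library. The tubule segment of this type was not tested. These cells (582, 750 and 346) had *C3* at 197, 200 and 90.3, on average 10.5 times the PTEC-like level (9.23 to 11.8). With both injured types joined, the log2 difference from PTEC-like cells was 4.76 ± 0.13 (SD over 3 mice). These classes were drawn from the same cells' RNA with complement genes left out, so the contrast is a description with no test.

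The share of cells gave the same order. Thinned to 1000 UMIs, 44.8%, 37.9% and 35.1% of injured PTEC-like cells held a *C3* UMI, against 1.38%, 1.58% and 0.935% of PTEC-like and 0.568%, 0.343% and 0.290% of T lymphocyte-like cells. Before thinning, 75.1%, 69.97% and 72.1% of injured PTEC-like cells held one, at median depths of 11511, 7232 and 11105 UMIs. Next in the order of *C3* came granulocyte-like cells, at 165, 193 and 126, and monocyte-type macrophage-like cells, at 163, 167 and 126, whose ranges overlapped that of injured cells with weak PTEC markers. The injured PTEC-like cluster was led by *Ccl2*, *Vcam1*, *Cp*, *Mgp*, *Tagln*, *Cxcl1*, *Ptgds*, *Hspb1*, *Sparc* and *Sox9*, of which *Mgp*, *Tagln* and *Sparc* are also genes of stromal cells. Its summed level of 18 fibroblast markers was 3788, 4078 and 4940 and that of the 29 PTEC markers 15282, 15396 and 16615. The fibroblast markers summed to 806, 902 and 823 in PTEC-like cells and to 34220, 28855 and 30979 in fibroblast-like cells. Their part in the *C3* of injured PTEC-like cells was not tested.

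**Figure D3:**
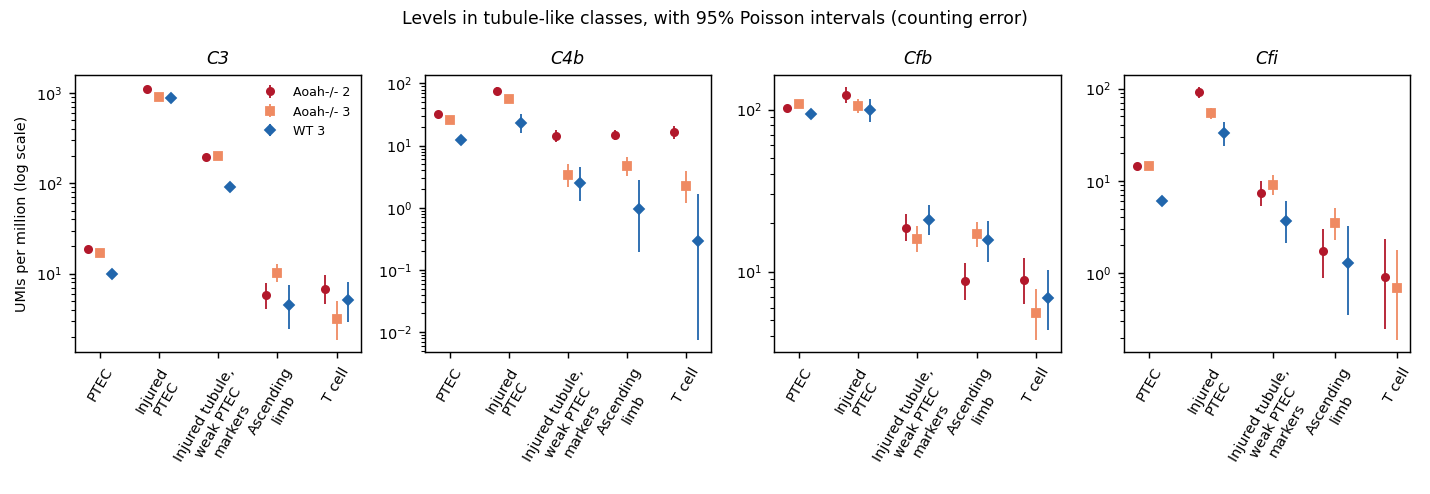
*C3*, *C4b*, *Cfb* and *Cfi* in 4 tubule-like classes and in T lymphocyte-like cells, in CPM on a log scale, by library with exact Poisson 95% intervals. *Cfi* of WT T lymphocyte-like cells is 0 and has no point. *C3* is 53.1 to 89.4 times higher in injured PTEC-like than in PTEC-like cells in every mouse, while *Cfb* is at about 100 CPM in both.

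Between genotypes, *C3* was higher in both *Aoah-/-* libraries in PTEC-like cells and in injured cells with weak PTEC markers. The injured PTEC-like cells gave a log2 ratio of 0.21 ± 0.22, and 0.04 to 0.73 over the alternatives. With 1 lowest UMI total applied to all libraries it was 0.73, from 1314, 1037 and 708 CPM. In the whole set of kept cells, the Poisson interval of *Aoah-/-* mouse 3 (870 to 929) overlapped that of WT (828 to 923). Injured tubule-like cells with weak PTEC markers gave 1.14 ± 0.02, with both *Aoah-/-* values at least 2.18 times WT. Over the alternatives this ratio ran from 0.68 to 1.34, a wider spread than the SD between the 2 *Aoah-/-* libraries. PTEC-like cells gave 0.87 ± 0.10, from 1017, 819 and 719 UMIs, with intervals (17.5 to 19.9, 15.8 to 18.1, 9.08 to 10.5) that kept WT apart from both others. Of the 7 PTEC-like clusters, which share the same libraries and are not replicates, 5 had both *Aoah-/-* libraries above WT and none had both below. Over these clusters *C3* ran from 14.5 to 25.2 in *Aoah-/-* mouse 2, from 8.80 to 25.7 in *Aoah-/-* mouse 3 and from 4.50 to 12.2 in WT. In the 5 background classes pooled, *C3* was 7.83, 6.24 and 5.46. The summed level of 30 injury markers in the PTEC-like cells was 1370, 1289 and 777, in the same order as *C3*, and its part in the *C3* difference was not tested.

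Fibroblast-like cells showed the reverse, and here the libraries were far apart. *C3* stood at 519 and 127 in the *Aoah-/-* libraries and 3669.6 in WT, a log2 ratio of -3.51 ± 1.43. Thinned, 87.0% of the WT fibroblast-like cells held a *C3* UMI (interval 83.1 to 90.2%), against 6.58% (2.17 to 14.7%) and 4.03% (2.10 to 6.93%) of those of the *Aoah-/-* mice. *Serping1* stood at 577, 419 and 1631 (-1.71 ± 0.33), *Cfb* at 40.3, 38.9 and 108 (-1.44 ± 0.04) and *Cd55* at 32.8, 11.3 and 278 (-3.66 ± 1.08). *C4b*, at 101, 27.6 and 129 (-1.01 ± 1.32), was also below WT in both, but *Aoah-/-* mouse 2 was at 0.78 times WT. The class held few cells of *Aoah-/-* mouse 2 (84, against 298 and 385). It joined a cluster led by *Dcn*, a proteoglycan of matrix fibroblasts, with 32, 177 and 363 cells, and a cluster led by *Rgs5* and *Acta2*, genes of pericytes and smooth muscle, with 52, 121 and 22 cells. *C3* in the *Rgs5* and *Acta2* cluster was 15.7, 14.6 and 0. In the *Dcn*-led cluster alone, a view chosen after seeing the data, *C3* was 989, 199 and 3812 (-2.68 ± 1.64), *Serping1* 975, 628 and 1686 (-1.07 ± 0.45), *Cfb* 48.7, 39.2 and 110 (-1.33 ± 0.22) and *Cd55* 63.4, 10.4 and 289 (-2.97 ± 1.85). Each of these ratios was nearer to 0 than in the whole class and kept its side. *C4b* was left out of them. It was 78.0, 33.5 and 134 in the *Dcn*-led cluster, with *Aoah-/-* mouse 2 further below WT than in the whole class, so its ratio was not nearer to 0. *C1qa* ran the other way, at 217, 170 and 40.2 in the class and 87.7, 157 and 41.4 in the *Dcn*-led cluster. *Lyz2*, at 743, 480 and 122 in the class, ran in the same order as *C1qa*, and the 24 macrophage markers summed to 5753, 3986 and 3902. PTEC markers in the class summed to 9104, 26989 and 8638. The part of these markers in the results was not tested.

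A further set of cells bears on *C3* of the WT library. One unnamed cluster, with *Dcn*, *Igfbp6*, *Upk3b* and *Msln* among its leading genes, the last 2 known from mesothelium, held 150 WT cells, 1 cell of *Aoah-/-* mouse 2 and none of *Aoah-/-* mouse 3. Its *C3* was 10664 CPM, and with the other unnamed cells it held 58.0% of all *C3* UMIs of that library. Fibroblast-like cells held a further 32.1% of them. Over whole libraries *C3* was 61.5, 60.4 and 262 CPM, and the high WT value rests on these cells.

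**Figure D4:**
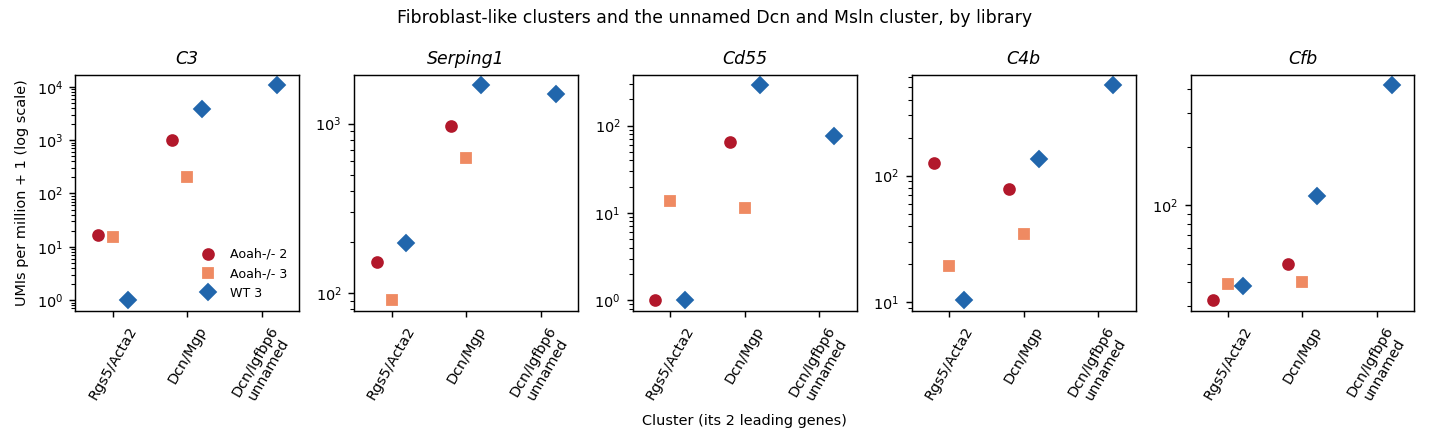
*C3*, *Serping1*, *Cd55*, *C4b* and *Cfb* in the clusters of fibroblast-like cells and in the unnamed cluster with *Upk3b* and *Msln*, as CPM plus 1 on log scales, with 1 point per library and no error bars. The WT library is highest for each gene in the *Dcn*-led cluster, and the unnamed cluster has a point for the WT library alone.

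*C4b* had its highest level in peritoneal-type macrophage-like cells, at 1979 CPM in *Aoah-/-* mouse 2 and 941 in WT. PTEC-like cells had 32.4, 26.3 and 12.5 (log2 ratio 1.24 ± 0.22), with Poisson intervals of 30.9 to 34.0 and 24.8 to 27.7 against 11.7 to 13.3, and injured PTEC-like cells had 75.6, 56.9 and 23.3 (1.51 ± 0.29). In the injured cells the ratio ran from 0.81 to 2.06 over the alternatives, and *Aoah-/-* mouse 3 was under 1.5 times WT at 20% mitochondrial UMIs (58.5, 29.5 and 25.1) and with complement genes kept for clustering (58.9, 27.7 and 19.6). In all 7 PTEC-like clusters both *Aoah-/-* libraries lay above WT, over ranges of 16.7 to 50.4, 7.70 to 44.0 and 4.01 to 22.1. The clusters share the same libraries and are not replicates, and *C1qa* and *C1qc* were above WT in all 7 as well. The thinned share of PTEC-like cells with a *C4b* UMI was 3.53%, 2.51% and 1.20%, against 1.70%, 0.114% and 0.0967% of T lymphocyte-like cells.

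In *Aoah-/-* mouse 2, peritoneal-type cells held 84.5% of all *C4b* UMIs. PTEC-like cells held the most in *Aoah-/-* mouse 3, 56.1%. In WT, unnamed cells held 29.2%, PTEC-like cells 28.8% and peritoneal-type cells 19.1%. The 5 background classes pooled had 16.9 CPM in *Aoah-/-* mouse 2, against 3.43 in *Aoah-/-* mouse 3 and 1.35 in WT. The summed level of 12 peritoneal macrophage genes in PTEC-like cells was 120, 36.0 and 26.3, and none of the 12 was at 0. *Aoah-/-* mouse 3, with 19 peritoneal-type cells, had 26.3 CPM in PTEC-like cells, 2.11 times WT. The part of free RNA in the *C4b* of PTEC-like cells was not tested. The low *C4b* values of kidney-type macrophage-like (39.4, 23.0 and 14.3) and endothelial-like cells (21.5, 5.11 and 0.9003) were highest in *Aoah-/-* mouse 2 as well, in the order of the background classes, and the part of free RNA in them was not tested. *C4b* in dendritic-like cells was lower in both *Aoah-/-* libraries, at 13.9, 3.07 and 63.8 (-2.91 ± 1.54).

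**Figure D5:**
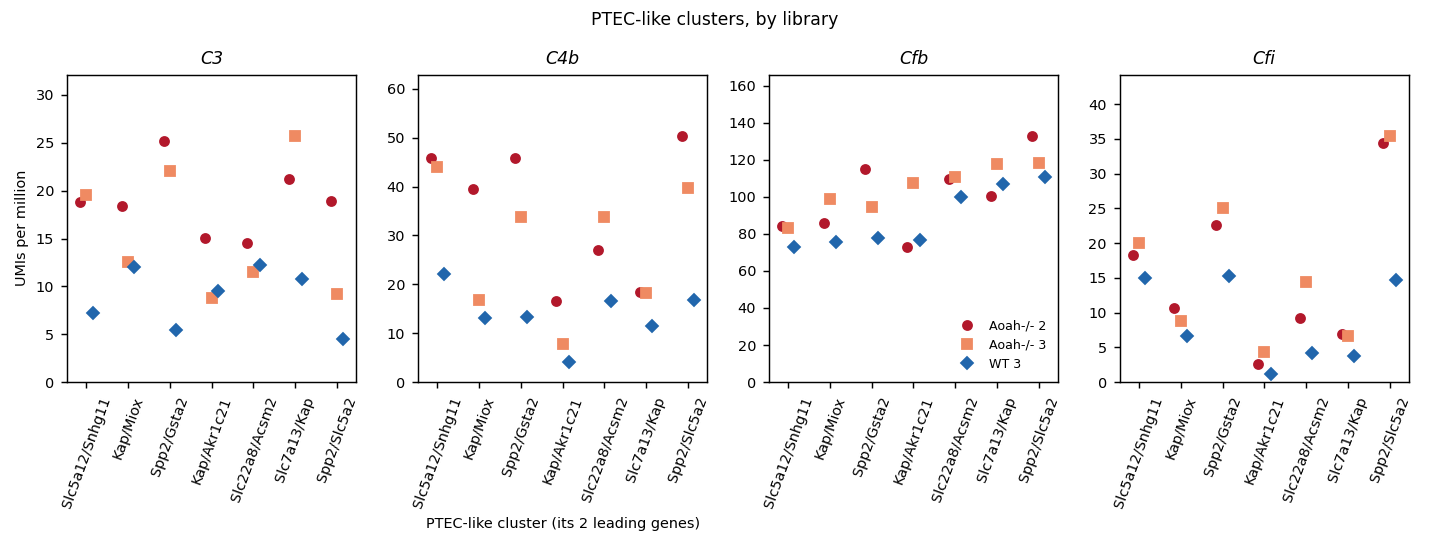
*C3*, *C4b*, *Cfb* and *Cfi* in the 7 PTEC-like clusters, named by leading genes, in CPM with 1 point per library and no error bars. *C4b* and *Cfi* are higher in both *Aoah-/-* libraries than in WT in all 7 clusters, *C3* and *Cfb* in 5 of them. The clusters are not replicates, and *C1qa* and *C1qc*, which are not drawn, are higher in all 7 as well.

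*Cfb* UMIs came mainly from PTEC-like cells in all 3 libraries. PTEC-like cells had 102, 108 and 93.3 CPM (log2 ratio 0.17 ± 0.07) and held 61.4%, 68.1% and 76.5% of all *Cfb* UMIs. The injured PTEC-like cells were at much the same level, 123, 106 and 99.6, whose range overlapped that of PTEC-like cells. Injured cells with weak PTEC markers had only 18.7, 15.9 and 21.0, near the 11.2, 12.5 and 11.3 of the background classes. Over the 7 PTEC-like clusters it ran from 73.1 to 133, 83.0 to 118 and 72.7 to 111. Peritoneal-type macrophage-like cells of *Aoah-/-* mouse 2 held 217 and those of WT 113.

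*Cfi* had its highest level in injured PTEC-like cells, at 90.7, 53.6 and 32.6 CPM, 5.02 times the PTEC-like level on average (3.69 to 6.32). Its Poisson intervals there did not overlap between libraries (79.1 to 103, 46.6 to 61.4 and 24.1 to 43.0), and the log2 ratio was 1.15 ± 0.54. It ran from 0.42 to 1.69 over the alternatives. *Aoah-/-* mouse 3 was under 1.5 times WT at 20% mitochondrial UMIs (62.0, 41.7 and 38.7), with complement genes kept for clustering (56.2, 36.3 and 32.8), without the highest Scrublet scores (42.4, 36.0 and 26.5) and at 500 genes or more (67.1, 48.5 and 33.3). PTEC-like cells had 14.3, 14.5 and 6.02, a log2 ratio of 1.26 ± 0.01. In the 5 background classes pooled, *Cfi* was 5.72, 4.13 and 2.70, also higher in both *Aoah-/-* libraries. All 7 PTEC-like clusters, which are not replicates, had both *Aoah-/-* libraries above WT. Their ranges of *Cfi* were 2.62 to 34.4, 4.40 to 35.4 and 1.19 to 15.3. The injured cells with weak PTEC markers had less, at 7.30, 9.11 and 3.69. Intercalated-like cells came next in the order, at 16.8, 11.3 and 7.28, and overlapped PTEC-like cells. Macrophage-like cells were near 0, with at most 2.44 in any type.

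*Serping1*, the C1 inhibitor, was highest in fibroblast-like cells, which held 58.0%, 72.4% and 62.0% of its UMIs. Unnamed cells held a further 35.5% in WT, and endothelial-like cells 18.5% in *Aoah-/-* mouse 2. The next named classes by level, injured PTEC-like (12.2, 14.6 and 19.3) and endothelial-like (16.2, 10.8 and 11.1), overlapped each other and lay far below the fibroblast-like values given above. PTEC-like cells had 0.147, 0.352 and 0.694. *Cd55* was highest in B lymphocyte-like cells, at 282, 422 and 439 (log2 ratio -0.32 ± 0.41), where 29.4%, 40.8% and 38.4% of thinned cells held a UMI, against 1.14%, 1.09% and 0.677% of T lymphocyte-like cells. *Aoah-/-* mouse 3 and WT had overlapping intervals (392 to 454 and 411 to 469), and mouse 2 was lower. Fibroblast-like cells came second on average, through the 278 CPM of WT. Urothelial-like cells had 79.0, 51.7 and 82.6, with both *Aoah-/-* values below WT but mouse 2 at 0.956 times WT. Natural killer-like cells had 21.4, 26.0 and 24.8, with WT between the *Aoah-/-* values.

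To set these values against all genes, a gene was counted in a class by 1 rule. It had at least 20 CPM in a library, and both *Aoah-/-* libraries lay at least 1.5-fold to the same side of WT. For folds and log2 ratios, any level under 3 counts was set to 3 counts. Over 19 classes with cells of each library, the 9 genes gave 85 pairs of gene and class, of which 36 were higher and 8 lower, while 5.03% of the pairs of all genes were higher and 3.12% lower. C1q chains made up 27 of the 36, none of them in a macrophage-like type, which leaves 9 higher and 5 lower of the 37 pairs of the other 6 genes. Of these, *C4b* was higher in 6 of 10 classes and lower in 1, *C3* higher in 2 of 9 and lower in 1, and *Cfb* lower in 1 of 12 and higher in none. In some of these classes *C4b* reached 20 CPM in *Aoah-/-* mouse 2 alone, the library with the most *C4b* in the background classes. They were endothelial-like (21.5, 5.11 and 0.9003), intercalated-like (21.5, 2.55 and 1.14) and monocyte-type macrophage-like cells (25.9, 6.23 and 1.245). For all genes alike, 20 CPM in any library was enough, so a pair could pass the minimum on its high side alone. *C4b* in PTEC-like cells (32.4, 26.3 and 12.5) and *C1qa* in T lymphocyte-like cells (45.8, 30.3 and 12.5) did so in *Aoah-/-* libraries. *C4b* in dendritic-like cells (13.9, 3.07 and 63.8) did so in WT. The counts are therefore a description and no test.

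By class, in PTEC-like cells 1 of 2 genes was higher, *C4b*, where 1.93% of all genes were higher and 0.869% lower. *C3* and *Cfi* were under the minimum there. In injured PTEC-like cells 4 of 6 were higher, *C1qa*, *C1qb*, *C4b* and *Cfi*, against 2.39% of all genes higher and 2.8% lower. Without cells holding an immune marker UMI, *C1qa* (13.3, 6.51 and 1.91 CPM) and *C1qb* (5.72, 8.68 and 6.69 CPM, log2 ratio 0.11) fell under the minimum there. *C4b* and *Cfi* were no longer counted under the alternatives given above. In injured cells with weak PTEC markers 2 of 3 were higher, *C1qa* and *C3*, against 1.96% and 1.27%. Their *C1qa* also fell under the minimum without cells holding an immune marker UMI (8.45, 10.4 and 3.63 CPM). In kidney-type macrophage-like cells *C4b* was higher among 6, against 3.37% and 0.682%. In fibroblast-like cells the 3 C1q chains were higher and *C3*, *Cfb*, *Serping1* and *Cd55* lower among 8, in a class where 14.2% of all genes were higher and 12.6% lower, so the libraries stood apart there for many genes.

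The rest of the pathway was read from a list of 50 other complement genes, of which 49 were in the files. Of their 143 pairs over the minimum, 22 were higher and 11 lower, against 5.03% and 3.12% of the pairs of all genes. Fibroblast-like cells, where many genes differed, gave 8 of the 22 and 4 of the 11. Of 13 genes that start the cascade, 4 passed 20 CPM in a class. The proteases of the C1 complex, *C1s1* and *C1ra*, were highest in fibroblast-like cells, *C1s1* at 239, 150 and 861 and *C1ra* at 108, 73.5 and 660, both lower in the *Aoah-/-* libraries like *C3* and *Serping1*. *Fcna*, a ficolin of macrophages, stood at 441 in peritoneal-type cells of *Aoah-/-* mouse 2 and 455 in those of WT. Of 4 further components, *C2*, the partner of C4 in the classical convertase, was highest in injured PTEC-like cells (80.1, 55.2 and 75.1), and in PTEC-like cells it stood at 34.0, 31.3 and 20.04, a log2 ratio of 0.70. *Cfp*, properdin, stood at 1067 in peritoneal-type cells of *Aoah-/-* mouse 2 and 1035 in those of WT. *Cfd*, the protease that cleaves factor B, had at most 2.52 in its top class.

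Of 6 genes of the terminal pathway, only *C7* passed 20 CPM, in fibroblast-like cells at 27.7, 10.6 and 23.8, and *C8g* and *C8a*, highest in PTEC-like cells, did not exceed 19.4 and 3.93. Of 16 regulators, 7 passed. *Clu*, clusterin, which keeps the terminal complex from inserting, was the highest of all, at 3992, 4461 and 6557 in injured tubule-like cells with weak PTEC markers, 314, 397 and 320 in injured PTEC-like cells and 12.9, 16.3 and 11.7 in PTEC-like cells. *Thbd*, thrombomodulin, was highest in endothelial-like cells at 404, 455 and 565. All 10 receptors passed. The subunits of complement receptor 3, *Itgam* and *Itgb2*, were highest in peritoneal-type cells, with *Itgam* at 1459 in *Aoah-/-* mouse 2 and 1163 in WT. By the rule above, *Itgam* was higher in kidney-type macrophage-like (log2 ratio 0.74) and fibroblast-like cells, and *Itgb2* in erythroid- and fibroblast-like cells. *C3ar1*, the receptor of the C3a fragment, was even across genotypes in kidney-type macrophage-like cells, at 263, 269 and 256. By the same rule *C3ar1* was higher in monocyte-type macrophage-like cells and lower in dendritic-like cells. *Cd93*, once held to be a C1q receptor, was even in endothelial-like cells, at 911, 881 and 902. It was counted as higher in fibroblast-, granulocyte- and cycling-like cells, where 14.2%, 15.1% and 8.68% of all genes were higher.

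The genes most like each member were those with the highest Pearson r over the mean log2 levels (10 CPM added) of the 20 classes, which share libraries and free RNA, so r is a description. For *C1qa* they were *Abca9* (0.92), *Adgre1* (0.91), which encodes F4/80, and *Apoe* (0.91), and the lists of *C1qb* and *C1qc* held *Abca9* and *Adgre1* too. *C3* was least matched, with *Adamtsl4*, *Pdlim4* and the chemokine gene *Cxcl1* at 0.81, 0.81 and 0.81. For *C4b* they were *Engase* (0.94), *Cxcl13* (0.94) and *Prg4* (0.92), for *Cfb* *Mlxipl* (0.89) and *Calml4* (0.83), and for *Cfi* *Ihh* (0.92), *Fgg* (0.92) and *Wfdc16* (0.90). *Serping1*, which rests on 1 class, had *Mustn1*, *Prelp* and *Lox* at 1.00, 0.99 and 0.99. *Cd55* followed the B lymphocyte genes *Pou2af1* (0.83) and *Ms4a1* (0.83).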

How the data were processed

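Kidney cells of 2 *Aoah-/-* mice and 1 WT mouse were profiled with 1 library each. The deposited files hold raw UMI counts, not normalized, of 27998 genes in barcodes that the authors had called as cells. The labels name Cell Ranger 3.1.0, STAR, Seurat 4.2.0 and mm10, while the file headers name Cell Ranger 6.1.2. Of 73281 barcodes, 59262 had 200 genes or more and no more than 50% of UMIs from mitochondrial genes and were kept. The libraries were clustered together in scanpy 1.11.5 on 2000 variable genes (complement and MHC class II genes, *Cd74* and *Aoah* left out), with 50 principal components, 15 neighbours and Leiden resolution 1 (igraph 0.11.9). Clusters took the name of the class with the strongest 5 markers (mean log2 fold of at least 2, 3 or more markers at 2-fold, a marker among the 10 leading genes). Scrublet called 544, 0 and 201 cells, so its threshold failed in *Aoah-/-* mouse 3, and doublets were kept. Counts were summed per library and class, given per 1000000 (CPM), with exact Poisson and Clopper-Pearson 95% intervals (scipy 1.17.1), which cover counting error only. Classes with under 20 cells in a library got no level. Summing, calls and thinning were tested on simulated data.

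The members and lists were chosen with earlier results of these data known. Other complement genes are named by rule, the 3 highest of each role; *C3ar1* was named after its values were seen, and a few genes that the rules name are not reported here. Alternatives changed the cell filters, clustering, weighting, thinning, thresholds and libraries.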

Additional observations from a re-analysis of the deposited data

Results flagged for a closer look

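In 5 genes, both *Aoah-/-* libraries lay to one side of WT in one class and to the opposite side in another, and the difference between the classes was not tested in any of them. *C1qa* had a log2 ratio of -1.90 in dendritic-like cells and 2.86 (SD 2.08) in erythroid-like cells, where *Aoah-/-* mouse 2 was 1.67 and mouse 3 12.9 times WT. *C1qc* had -1.55 and 2.67 (SD 2.02) in the same classes, so both erythroid values rest largely on mouse 3. *C1qb* had -1.35 in dendritic-like cells and 2.16 in injured PTEC-like cells, the latter from a WT level of 5.31 CPM, and 0.11 (5.72, 8.68 and 6.69 CPM) without cells holding an immune marker UMI. *C3* had -3.51 in fibroblast-like cells and 1.26 in urothelial-like cells, where it stood at 22.1, 14.8 and 7.71. *C4b* had -2.91 (SD 1.54) in dendritic-like cells and 3.89 (SD 1.47) in endothelial-like cells. In the latter, *Aoah-/-* mouse 2 was 23.9 and mouse 3 5.67 times WT, whose level of 0.9003 CPM equals the floor of 3 counts.

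The unnamed cluster of 150 WT cells with *Dcn*, *Igfbp6*, *Upk3b* and *Msln* among its leading genes exceeded every named class of any library for *C3* and for *Cfb* in WT. Its *C3* was 10664 CPM, against 3669.6 in the highest named class, and its *Cfb* was 416, against 113. Its *C4b* was 519, its *Serping1* 1504 and its *Cd55* 75.5. Cells of this kind were all but absent from the *Aoah-/-* libraries, so no genotype comparison of them can be made.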

How the results depend on the processing

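No paired analysis was made, since WT had 1 library. The groups share replicate number 3, but whether this number pairs the mice is not given in the sources used here. The log2 *C3* difference of injured from PTEC-like cells (4.76) was 4.23 at 20% mitochondrial UMIs, 4.52 without the highest Scrublet scores, 4.94 at resolution 2, 4.57 with complement genes in the clustering, 4.29 as a mean over cells and 5.04 without tubule cells holding an immune marker UMI, and 4.69 to 4.82 without 1 library. The *C3* log2 ratio of the injured classes joined (0.65) was 0.58, 0.77, 0.79 and 0.71 under the mitochondrial limit, resolution 2, complement genes kept and the immune marker setting, 0.76 at 500 genes, 0.84 at 1 lowest UMI total, 0.78 at 30 components and 0.62 to 0.68 without 1 library. That of PTEC-like cells (0.87) was 1.35 under the mitochondrial limit, 1.00 at 500 genes, 1.10 at 1 lowest UMI total, 1.29 without high Scrublet scores, 0.98 at resolution 2, 1.21 with complement genes kept, 0.97 with clusters weighted equally (chosen after seeing the data) and 0.79 to 0.93 without 1 library. The C1q ratio of all macrophage-like cells ran from -0.34 without *Aoah-/-* mouse 3 to 0.13 without mouse 2, so its sign rests on 1 library. The 44 pairs called became 22 at 50 CPM and 49 to 60 without 1 library, when only 1 *Aoah-/-* library had to pass. The pairs tested and the share of all genes under these changed rules are not given here. These counts therefore do not set the members against all genes. Shares moved with depth: *C3* in injured PTEC-like cells (mean 39.3%) was 25.8% at 500, 52.8% at 2000 and 72.4% without thinning, and *C1qa* in kidney-type cells (86.6%) 74.4% and 94.0% at 500 and 2000. The sign turned for *C3* in kidney-type macrophage-like cells (-0.30) at resolution 2 (0.21) and as a mean over cells (0.24), and for *Cfb* in injured cells with weak PTEC markers (-0.28) without immune marker UMIs (0.54), and the cause was not tested.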
